A study of Homo sapiens with 4 samples.

Results

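Cytochrome c oxidase, complex IV of the respiratory chain, was examined through 34 nuclear genes, 15 for subunits and their tissue isoforms and 19 for assembly factors and closely linked proteins, out of 26506 gene symbols in each expression table. The members were listed by symbol from general knowledge of the complex, with earlier results of these data known. All 34 were found in the tables of both cell lines. The study compared the human ovarian cancer cell lines HeyC2 and SKOV3 after transfection with 3 μg of pCMV6/TET1, an expression plasmid for the DNA demethylase TET1, or of the empty plasmid, by lipofectamine 2000 in both arms. All 4 groups, the controls included, were selected and kept in Geneticin at 400 μg/ml, and the labels give the genotype of the control cells as Wild-type and of the others as TET1 overexpressed. Each group consisted of 1 library, and the labels do not say whether the selected cells were 1 clone or a pool. The question was whether RNA for the terminal oxidase differed between TET1-transfected and control cells, and no difference below has a replicate check.

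Complex IV takes electrons from cytochrome c and passes them to oxygen, and it pumps protons across the inner mitochondrial membrane as it does so. Its catalytic core is encoded by mitochondrial DNA and carries heme A and copper, while the smaller subunits around the core are encoded in the nucleus and imported. Assembly factors make heme A, hand over copper and hold partly built modules until the subunits join. Most of these genes are expressed in nearly every tissue, with separate isoforms of a few subunits in heart and muscle, lung or testis.

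TET1 itself was at 0.20 FPKM (fragments per kilobase of transcript per 1000000 mapped fragments, a level corrected for transcript length) in the HeyC2 control and at 0.52 in HeyC2 TET1. In SKOV3 it was at 0.43 FPKM in the control and at 1.80 in TET1. Both TET1 libraries were thus above their control, on about 14 and 32 fragments in HeyC2 and about 29 and 113 in SKOV3. In HeyC2, TET1 was under the expression filter used below, a mean of at least 1 FPKM, so no relative change is given for it there. Sequencing depth was estimated at 6460000 to 7360000 fragments per library, and 15162 to 16941 genes were above 0. Of 8 epithelial and ovarian cancer markers, KRT8, KRT18 and PAX8 were at 74.59 FPKM or higher in all 4 libraries, EPCAM was below 1 FPKM in both HeyC2 libraries, and WT1 and MUC16 were below 1 FPKM in all 4. In SKOV3, KRT7 went from 1537.20 FPKM in the control to 21.96 in TET1 and KRT19 from 255.14 to 0.46. In HeyC2, KRT7 went from 289.68 to 1124.57 FPKM and KRT19 from 0.62 to 1.59. The mesenchymal marker VIM went from 7496.18 to 2926.91 FPKM in HeyC2 and from 1223.43 to 834.83 in SKOV3. The leukocyte, endothelial and fibroblast markers PTPRC, CD3E, PECAM1, VWF and DCN were below 1 FPKM in all 4 libraries, while COL1A1 went from 0.32 FPKM in SKOV3 control cells to 27.66 with TET1. These are values of bulk cultures, in which fewer cells of a type and less RNA per cell cannot be told apart, and the part of the marker shifts in the results below was not tested.

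Each TET1 library was deposited with its FPKM multiplied by a constant, 3.23 for HeyC2 and 1.35 for SKOV3, which makes GAPDH equal in both libraries of a line. With this constant in place, all 30 members that passed the expression filter in HeyC2 were at least 1.5-fold above control, but so were 96.2% of all genes. In SKOV3, 11 of 32 members were at least 1.5-fold above control on the deposited scale, beside 49.7% of all genes. The median ratio of TET1 to control was 2.99 for the members and 3.10 for all genes in HeyC2, and 1.391 and 1.496 in SKOV3. These ratios, and the counts and shares before them, were taken with 1 added to each deposited FPKM. The constant moves every gene of a library alike, so all values below are FPKM with the constant divided out. The values of TET1 and the markers above were likewise given with the constant divided out. A relative change is log2 of the TET1 over the control FPKM, with 1 added to each, minus the median of the same quantity over all genes with a mean of at least 1 FPKM in that line.

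Relative to all genes, RNA of these nuclear cytochrome oxidase genes as a group differed little between TET1 and control in either line. The mitochondrially encoded core is not covered by this statement. In HeyC2 the median relative change of the 30 members that passed was -0.12, and in SKOV3 that of 32 members was -0.13. In HeyC2, 1 member was at least 1.5-fold above the all-gene median and 2 were at least as far below it, against 12.5% and 9.17% of all genes. In SKOV3, 1 member was above by that margin and 4 were below, against 20.7% and 18.2% of all genes. Of these 4, COX7A1 passed the filter through 1 library alone and had to differ, and without it 3 of 31 members were below. The member above was SCO2 in HeyC2 and COA5 in SKOV3. The members below were COX10 and CYCS in HeyC2, and COX7A1, COX8A, COX15 and COA6 in SKOV3. The median size of the relative change, without its sign, was 0.18 for the members and 0.29 for all genes in HeyC2, and 0.21 and 0.46 in SKOV3.

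**Figure D1:**
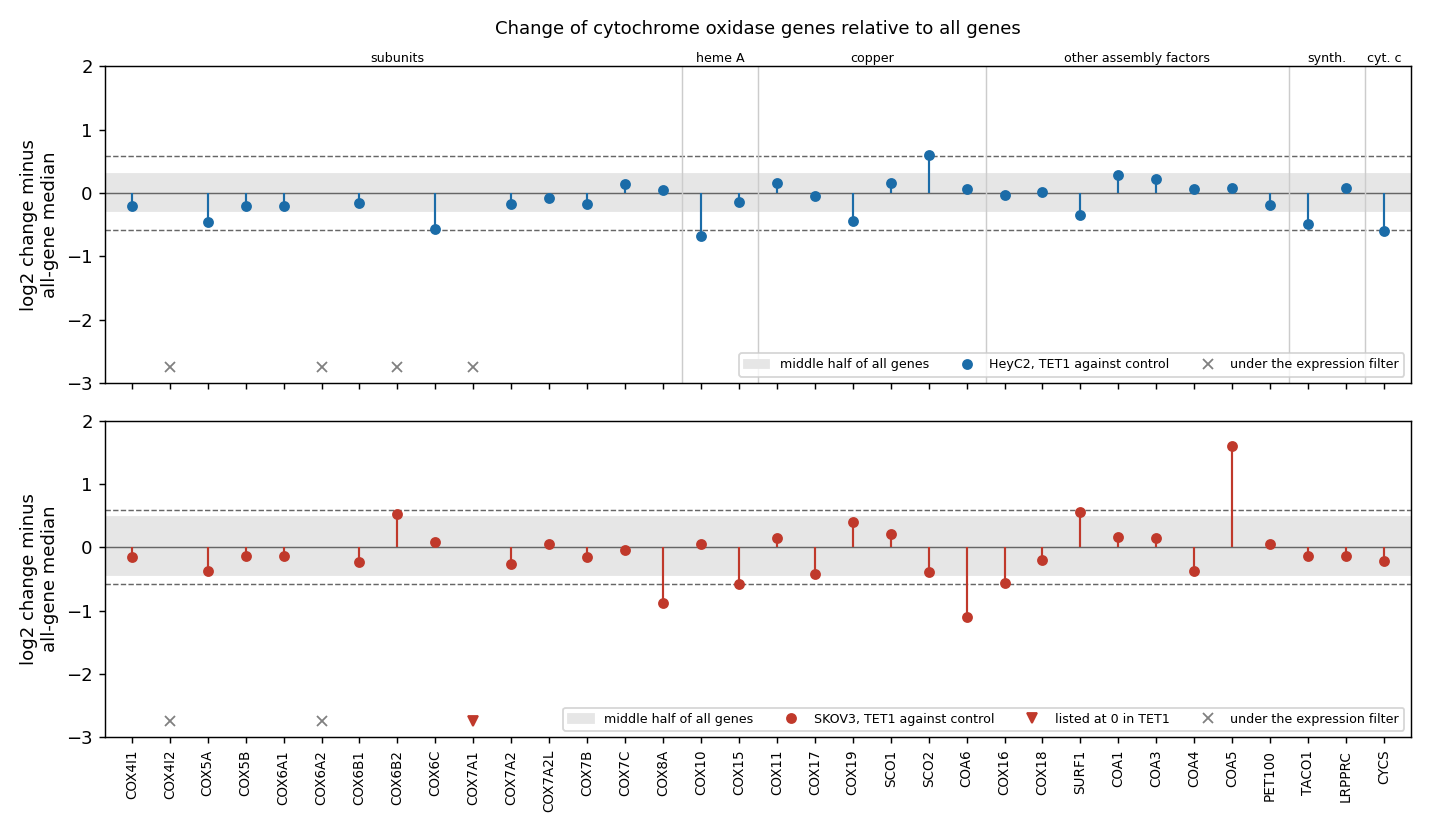
Relative log2 change of each member between TET1 and control, HeyC2 above and SKOV3 below, with the members ordered by role on the horizontal axis. The grey band holds the middle 50% of all genes, dashed lines mark 1.5-fold, crosses mark members under the expression filter and the triangle marks COX7A1, listed at 0 in SKOV3 TET1. Most members lie inside or next to the band, and COA5 at 1.60 and COA6 at -1.10 in SKOV3 lie farthest from 0 among the plotted values.

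TET1 acts on methylated cytosine, which in mammalian DNA is found mostly where C is followed by G, so the CpG content of the members' promoters is given beside their RNA. RefSeq promoter windows of 300 bases, 250 before and 50 after the start of transcription, were used for 29 of the 34 members, the others being COX4I2, COX6C, COX7A1, COX11 and SCO2. The median window held 22 CpG in the members and 13 over all 27305 genes of the table. Assembly and other factors held a median of 27 CpG and a median GC content of 64.7% in 17 windows, and subunits 17 CpG and 55.8% in 12 windows, with 58.3% over all genes. The 250 bases upstream of the start are shown for 5 members that passed the 1.5-fold limit in HeyC2 or SKOV3 and whose window lies outside the annotated transcript or reaches at most 30 bases into it so that the CpG of their promoters can be seen. COA6, SCO2 and COX7A1 also passed it and are not shown. They are written 5′ to 3′ on the strand of the gene, with each CpG in capitals. Coordinates are those of the same letters in GRCh37, chr11:63741842-63742091 for COX8A and chr17:13972571-13972820 for COX10 on the plus strand, and chr10:101491885-101492134 for COX15, chr2:99224976-99225225 for COA5 and chr7:25164880-25165129 for CYCS on the minus strand.
COX8A: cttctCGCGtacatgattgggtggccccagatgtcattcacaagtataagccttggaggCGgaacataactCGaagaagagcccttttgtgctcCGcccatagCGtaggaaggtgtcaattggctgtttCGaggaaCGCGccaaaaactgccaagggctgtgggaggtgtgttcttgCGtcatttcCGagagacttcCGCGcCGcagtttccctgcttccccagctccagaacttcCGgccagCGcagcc
COX10: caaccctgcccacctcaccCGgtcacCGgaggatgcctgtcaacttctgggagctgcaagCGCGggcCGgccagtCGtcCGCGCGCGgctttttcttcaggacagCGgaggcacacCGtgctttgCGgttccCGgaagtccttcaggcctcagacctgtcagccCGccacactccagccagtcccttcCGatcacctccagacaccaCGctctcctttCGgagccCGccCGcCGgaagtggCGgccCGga
COX15: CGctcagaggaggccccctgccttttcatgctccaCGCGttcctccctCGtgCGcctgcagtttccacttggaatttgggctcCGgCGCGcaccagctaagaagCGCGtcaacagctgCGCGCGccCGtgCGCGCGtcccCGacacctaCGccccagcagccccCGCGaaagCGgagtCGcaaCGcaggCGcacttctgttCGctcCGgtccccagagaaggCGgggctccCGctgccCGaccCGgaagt
COA5: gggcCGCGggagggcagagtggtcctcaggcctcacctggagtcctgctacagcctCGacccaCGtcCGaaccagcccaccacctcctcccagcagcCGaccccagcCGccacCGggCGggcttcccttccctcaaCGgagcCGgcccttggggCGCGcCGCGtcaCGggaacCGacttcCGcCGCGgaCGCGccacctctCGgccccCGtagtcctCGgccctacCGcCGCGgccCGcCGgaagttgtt
CYCS: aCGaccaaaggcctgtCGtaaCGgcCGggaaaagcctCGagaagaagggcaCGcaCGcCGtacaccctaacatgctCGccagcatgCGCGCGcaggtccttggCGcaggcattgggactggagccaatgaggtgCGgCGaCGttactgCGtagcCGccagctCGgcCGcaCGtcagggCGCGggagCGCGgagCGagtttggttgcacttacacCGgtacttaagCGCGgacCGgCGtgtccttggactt
The number of CpG in these stretches was 16 in COX8A, 23 in COX10, 31 in COX15, 30 in COA5 and 31 in CYCS. Methylation of these stretches was not analysed here.

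Short motifs of factors known to bind promoters of respiratory genes were searched in the 29 windows on both strands. The ETS core CCGGAAGT, which GABP binds, was in 9 windows (31.03%), against 4.42% of all windows. It was in 7 of 17 windows of assembly and other factors (41.18%) and in 2 of 12 windows of subunits. The NRF1 core GCGCATGC was in 5 windows (17.24%), against 3.29%, and the YY1 core AAGATGGC was in 1 window (3.45%), against 3.01%. The ETS and NRF1 cores each hold a CpG and the YY1 core does not. The windows of all genes were not matched to the members in CpG content, and its part in these shares was not tested. The ETS core was in the windows of COX5B, COX8A, COX10, COX15, COX17, SCO1, COA1, COA4 and COA5, and the NRF1 core in those of COX5B, COX6A1, COX17, COX18 and CYCS. In the stretches shown, the ETS core began 19 bases before the start in COX8A, on the opposite strand, and at 119 and 19 bases before it in COX10, 8 in COX15 and 12 in COA5. The relative changes of the members that hold it ran from -0.67 to 0.28 in HeyC2 and from -0.88 to 1.60 in SKOV3. A match is a description of the letters and not a measured binding site.

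The subunits were the most abundant group. In all 4 libraries the same number, 11 of 15, lay above 10 FPKM, and COX7C, a small subunit without a tissue isoform, was the highest. COX7C was at 586.51 FPKM in HeyC2 control cells and 674.56 with TET1, and at 390.93 and 432.60 in SKOV3. COX4I1, the common form of the subunit that binds ATP, was at 328.05, 297.06, 367.16 and 376.35 FPKM in the same order. COX6A1, the common form of subunit VIa, was at 282.58, 255.34, 390.34 and 407.11 FPKM. In FPKM, both SKOV3 libraries lay below both HeyC2 libraries for COX7C and above them for COX4I1 and COX6A1. The tables of the lines were made separately. Relative to the all-gene median, the SKOV3 control minus the HeyC2 control was -0.85 (log2) for COX7C, -0.11 for COX4I1 and 0.20 for COX6A1. Summed over the 15 subunits, the level was 2371.5 FPKM in the HeyC2 control and 2308.2 in HeyC2 TET1, which is 0.491% and 0.456% of the summed FPKM of the library. In SKOV3 the sum was 2690.7 FPKM without and 2628.1 with TET1, or 0.569% and 0.577%. Among the 11 subunits above 10 FPKM, the highest level was 6.97 times the lowest in the HeyC2 control and 10.85 times in HeyC2 TET1. In SKOV3 this ratio was 5.47 in the control and 5.12 in TET1.

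**Figure D2:**
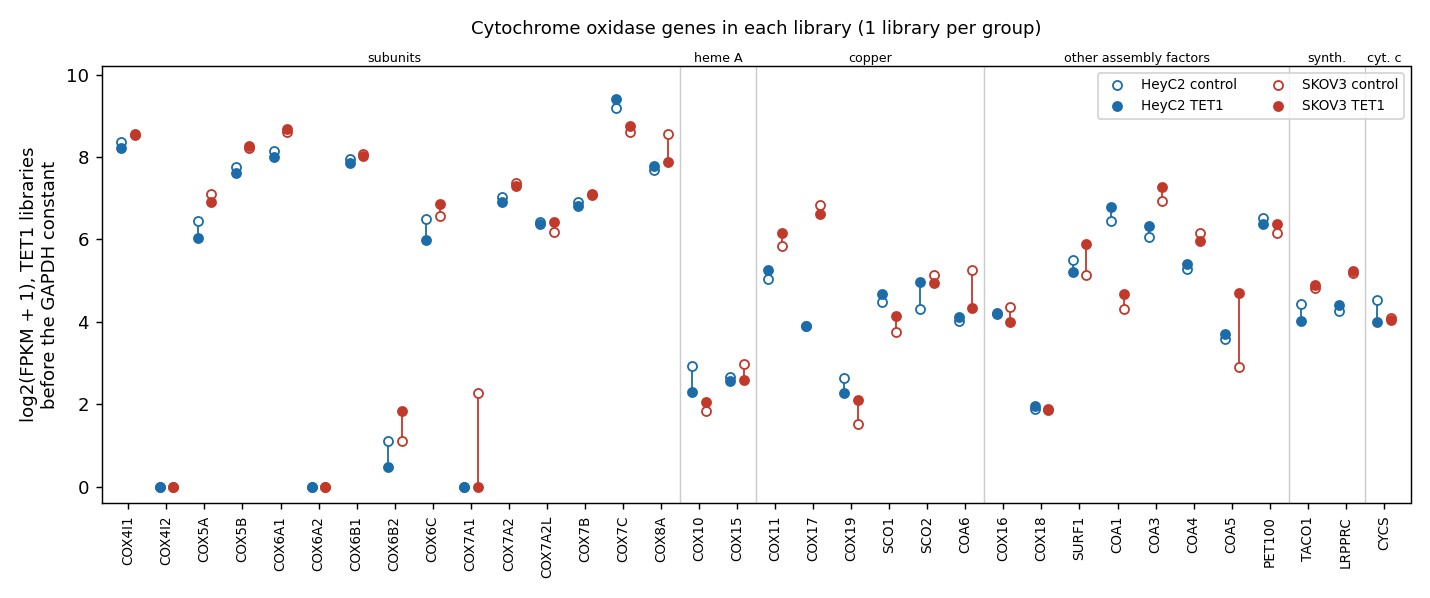
Level of each member in the 4 libraries as log2(FPKM + 1), with open circles for control and filled circles for TET1, blue for HeyC2 and red for SKOV3, and a line joining the libraries of 1 cell line. Most subunits lie near or above 6 on this scale, assembly factors mostly lie between 2 and 7, and COX4I2 and COX6A2 lie at 0 in all 4 libraries.

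In HeyC2, 9 of the 11 subunits that passed were below the all-gene median and 2 were above, with a median of -0.18 and a range from -0.56 to 0.14. None reached 1.5-fold. The lowest was COX6C, a subunit without a tissue isoform, at 88.64 FPKM in the control and 62.17 in TET1, a relative change of -0.56. In SKOV3 the same gene was at 94.43 and 114.09 FPKM, a relative change of 0.08. COX6C has 17 named pseudogenes in the GRCh37 annotation, and RSEM divides fragments that match several places among them by estimate. COX5A, a subunit near the matrix side, was the next lowest in HeyC2 at -0.46, from 85.79 to 64.70 FPKM, and was at -0.38 in SKOV3, from 135.36 to 119.00.

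In SKOV3 the median of the 13 subunits that passed was -0.16, with 10 below the all-gene median and 3 above. COX7A1, which passed the filter through the control library alone, had to be among the 10. The sign of this median depends on the reference, at 0.022 under upper-quartile scaling and 0.18 relative to genes of at least 50 FPKM. The median of the 19 assembly and other factors in SKOV3, -0.13, likewise became 0.0475 and 0.20. COX8A, the common form of subunit VIII, was at 374.92 FPKM in the control and 232.31 in TET1, a relative change of -0.88, or 1.84-fold lower. In HeyC2 its level was 204.30 FPKM in the control and 218.77 in TET1, a relative change of 0.04. The SKOV3 control thus held the highest COX8A level of the 4 libraries, and the other 3 lay between 204.30 and 232.31 FPKM. The error of fragment counting in the SKOV3 difference was 0.08 (SE, log2 scale, from approximate fragment numbers), which does not cover the spread between cultures. Relative to genes of at least 50 FPKM the value was -0.55, inside the limit.

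The tissue isoforms among the members were low or listed at 0. COX7B2, a paralog of COX7B outside the member list, was at 29.81 and 45.56 FPKM in SKOV3 control and TET1 and is described below. COX4I2, the lung form of subunit IV that responds to low oxygen, and COX6A2, the heart and muscle form of subunit VIa, were listed at 0 in all 4 libraries. COX7A1, the heart and muscle form of subunit VIIa, was at 3.81 FPKM in the SKOV3 control, about 5 fragments, and was listed at 0 in the other 3 libraries. It passed the filter through the SKOV3 control alone, so no fold is given. The common forms COX7A2 and COX7A2L were far higher. COX7A2 was at 128.48 FPKM in HeyC2 control cells and 118.20 with TET1, and at 164.10 and 156.17 in SKOV3, and COX7A1 made up 2.27% of the sum of COX7A1 and COX7A2 in the SKOV3 control. COX7A2L, a paralog that joins complex IV to complex III in supercomplexes, was at 84.09, 82.58, 71.53 and 84.52 FPKM in the same order. COX6B2, the testis form of subunit VIb, was at 1.14, 0.40, 1.17 and 2.55 FPKM, under the filter in HeyC2 and at a relative change of 0.52 in SKOV3. The common form COX6B1 was at 245.28, 228.51, 267.72 and 258.60 FPKM, so COX6B2 held 0.174% to 0.976% of the pair in the 4 libraries. For subunits IV, VIa, VIb and VIIa the common form thus made up nearly all of the RNA in TET1 and control cells of both lines.

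Heme A synthesis rests on COX10, which adds the farnesyl tail to heme, and COX15, which oxidises it further. COX10 was at 6.59 FPKM in the HeyC2 control and 3.95 in HeyC2 TET1, a relative change of -0.67, or 1.60-fold lower. In SKOV3 it was at 2.54 and 3.18 FPKM, a relative change of 0.05. The HeyC2 control held the highest of the 4 values, and the counting error of the HeyC2 difference was 0.21. COX15 was at 5.32 and 4.93 FPKM in HeyC2, a relative change of -0.15, and at 6.91 and 5.01 in SKOV3, where its relative change of -0.59 lay just past the 1.5-fold limit. COX16, a factor of copper and COX2 assembly, was on the other side of that limit in SKOV3 at -0.56. Both enzymes were among the least expressed members, and COX15 was below the all-gene median in both lines. The COX15 value was no longer past the limit in 4 of 10 alternatives, with a range from -0.68 to -0.26. COX15 shares 1081 bp of exon with an unnamed protein-coding gene on the same strand and 374 bp with ENTPD7 on the opposite strand. The part of these genes in the COX15 values was not tested.

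Copper delivery showed values in both directions. SCO2, a copper chaperone that hands copper to the mitochondrially encoded COX2 and whose promoter the study examined for demethylation, was at 18.71 FPKM in the HeyC2 control and 30.07 in HeyC2 TET1. Its relative change there was 0.60, just above the limit, with a counting error of 0.18, and it was 0.48 after correction for length and GC content, inside the limit. In SKOV3 it was at 34.34 and 29.65 FPKM, a relative change of -0.40. The 2 lines therefore moved apart, and the HeyC2 TET1 library reached a level close to both SKOV3 libraries. The paper reported lower methylation around the SCO2 promoter after TET1 expression, and more hydroxymethylated cytosine there in SKOV3 and HeyC2. By quantitative PCR of RNA it reported oxidative phosphorylation genes as upregulated in both lines, and its text does not say whether SCO2 was among them. The exons of SCO2 share 857 bp with those of NCAPH2 on the opposite strand, and the library kit is not stated to keep the strand, so reads of these genes cannot be told apart there. The relative change of NCAPH2 was 0.37 in HeyC2 and -0.68 in SKOV3, the same directions as SCO2, and its part in the SCO2 values was not tested. SCO1, the partner chaperone of SCO2, was at 21.21 and 24.67 FPKM in HeyC2 and at 12.37 and 16.59 in SKOV3, relative changes of 0.15 and 0.20.

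COA6, which works with SCO1 and SCO2 on copper transfer, was at 37.27 FPKM in SKOV3 control cells and 19.35 with TET1. The relative change was -1.10, or 2.15-fold lower, with a counting error of 0.12. In HeyC2 it was at 15.09 and 16.40 FPKM, a relative change of 0.05. The SKOV3 control was the high library, and the other 3 lay between 15.09 and 19.35 FPKM. COA6 shares 209 bp of exon with the antisense gene COA6-AS1, and these reads cannot be told apart either. COX17, a copper chaperone of the intermembrane space, was at 13.79 and 13.97 FPKM in HeyC2 and at 113.35 and 96.84 in SKOV3, with relative changes of -0.04 and -0.42. COX19, a soluble copper protein, was at 5.25 and 3.81 FPKM in HeyC2 and at 1.85 and 3.27 in SKOV3, relative changes of -0.44 and 0.39. COX11, which inserts copper into COX1, had relative changes of 0.16 and 0.14. It shares 784 bp of exon with TOM1L1 on the opposite strand, whose relative changes were -0.21 and 0.60. Of the 6 copper genes, SCO1 and COX11 were thus above the all-gene median in both lines, and COX17 was below it in both. The COX17 value in HeyC2 rested on about 28 and 27 fragments, with a counting error of 0.39. It was 0.03 with the values as deposited and 0.02 with correction for length and GC content, so its sign there is not settled.

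Of the 8 other assembly factors, COA5 had the largest difference. COA5, a factor in which mutations cause fatal infantile heart disease with complex IV deficiency, was at 6.44 FPKM in SKOV3 control cells and 24.82 with TET1. The relative change was 1.60, or 3.04-fold higher, with a counting error of 0.19, and it exceeded that of 96.3% of all genes. In HeyC2 it was at 10.90 and 12.09 FPKM, a relative change of 0.08. SKOV3 TET1 was thus the high library, and the other 3 lay between 6.44 and 12.09 FPKM. SURF1, a factor of early assembly and a gene of Leigh syndrome, was at 34.36 and 58.48 FPKM in SKOV3, a relative change of 0.56 just under the limit. In HeyC2 it was at 44.12 and 35.91 FPKM, a relative change of -0.35, so its direction differed between the lines.

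COA1 and COA3, which act on newly made COX1, were above the all-gene median in both lines and inside the limit. COA1 was at 86.75 and 110.03 FPKM in HeyC2 and at 18.87 and 24.48 in SKOV3, relative changes of 0.28 and 0.17. COA3 was at 65.34 and 79.03 FPKM in HeyC2 and at 121.11 and 152.72 in SKOV3, relative changes of 0.21 and 0.14. COA1 and COA3 followed SCO2 as the highest members in HeyC2. The remaining factors, COX16, COX18, COA4 and PET100, had relative changes from -0.20 to 0.07 in HeyC2 and from -0.56 to 0.04 in SKOV3.

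Synthesis of the mitochondrially encoded core was represented by TACO1, an activator of COX1 translation, and LRPPRC, which stabilises mitochondrial mRNAs. LRPPRC was at 18.29 and 20.14 FPKM in HeyC2 and at 35.31 and 36.81 in SKOV3, relative changes of 0.07 and -0.13. TACO1 was at 20.74 and 15.10 FPKM in HeyC2 and at 27.45 and 28.67 in SKOV3, relative changes of -0.49 and -0.13. CYCS, the somatic cytochrome c that feeds electrons to the complex and takes part in apoptosis, was at 22.27 and 15.00 FPKM in HeyC2 and at 15.93 and 15.63 in SKOV3. Its relative change was -0.60 in HeyC2, or 1.51-fold lower, and -0.22 in SKOV3. The HeyC2 value was inside the limit in 5 of 10 alternatives, with a range from -0.64 to -0.52. The HeyC2 control was the high library and the other 3 lay within 1 FPKM of each other. CYCS has 42 named pseudogenes, more than any other member, so its level depends on how fragments were divided.

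**Figure D3:**
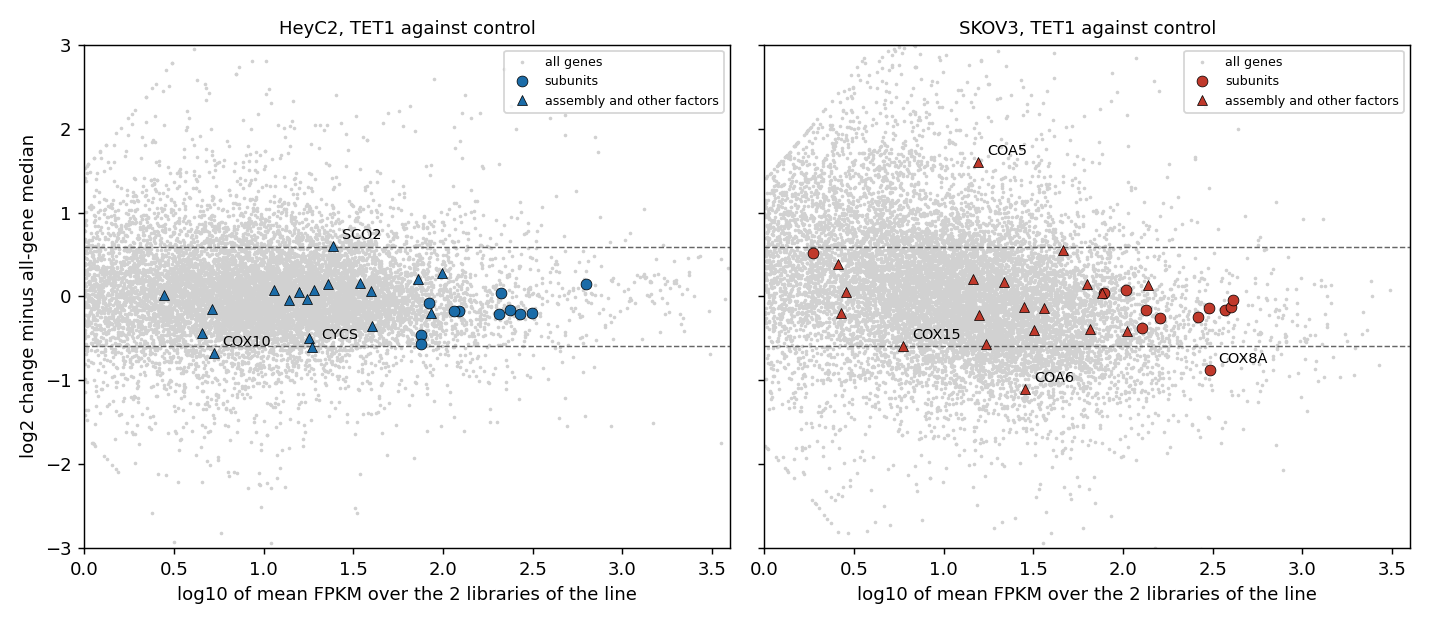
Relative log2 change between TET1 and control (vertical axis) against log10 of the mean FPKM of both libraries (horizontal axis), HeyC2 left and SKOV3 right, with all genes as grey dots, subunits as circles and assembly and other factors as triangles. Dashed lines mark 1.5-fold and members past it are named, COX7A1 being left out because it is listed at 0 in SKOV3 TET1, and genes beyond 3 in either direction are not drawn. The subunits gather at the abundant end, where the cloud of all genes in SKOV3 lies below 0.

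Abundance moved with the relative change in SKOV3, and most subunits are abundant. Among genes of at least 50 FPKM in SKOV3, the median relative change was -0.33 over 1821 genes, and 38.2% were past 1.5-fold in either direction. The 16 members at that level had a median of -0.14, and 1 of them, COX8A, was past the limit. In HeyC2 the median of 1535 such genes was -0.04 and 19.3% were past the limit, while the 14 members had a median of -0.18 and none was past it. Abundant members thus lay above genes of like level in SKOV3 and below them in HeyC2, and this difference was not tested.

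Over the 30 members with a relative change in both lines, Pearson's r between the lines was -0.06 and Spearman's rho -0.02, and 17 (56.7%) had the same sign. Over all 11134 genes with a value in both, r was 0.14 and rho 0.15, and 55.1% had the same sign. None of the 30 members and 9.3% of all genes were past 1.5-fold in both lines. The members are a list of genes measured with 1 kit in libraries of like depth and are not replicates, so these are descriptions. The log2 control levels of the same 30 members gave an r of 0.90 and a rho of 0.87.

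Between the controls of the lines, the share of members past 1.5-fold was near or below that of all genes. The tables of the lines were made separately, and the difference was taken as log2 of the SKOV3 over the HeyC2 control, with 1 added, minus its all-gene median. Of 32 members, 7 were at least 1.5-fold higher in SKOV3 and 9 at least 1.5-fold lower, against 28.6% and 29.0% of all genes, and the median of the members was -0.10. COX7A1, listed at 0 in the HeyC2 control, had to be among the 7, and without it 6 of 31 members were higher. The groups differed, with 5 of 19 assembly and other factors higher (26.32%) and 8 lower (42.11%). Of 13 subunits, 2 were higher (15.38%, COX7A1 included) and 1 lower (7.69%). The median size of the difference was 0.20 for subunits and 0.63 for assembly and other factors, against 0.71 for all genes. The higher members were COX7A1, COX8A, COX17, COA3, COA4, COA6 and LRPPRC, with COX17 at a relative 6.42-fold. COX17 rested on about 28 fragments in the HeyC2 control and about 225 in the SKOV3 control. The lower members were COX7C, COX10, COX19, SCO1, SURF1, COA1, COA5, PET100 and CYCS, with COA1 at a relative 5.32-fold and COX19 at 2.64-fold. COX8A and COA6, below their control in SKOV3 TET1, were among those higher in the SKOV3 control, and COA5, above its control there, was among those lower. These pairs of comparisons share the SKOV3 control library, so their values are not independent.

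**Figure D4:**
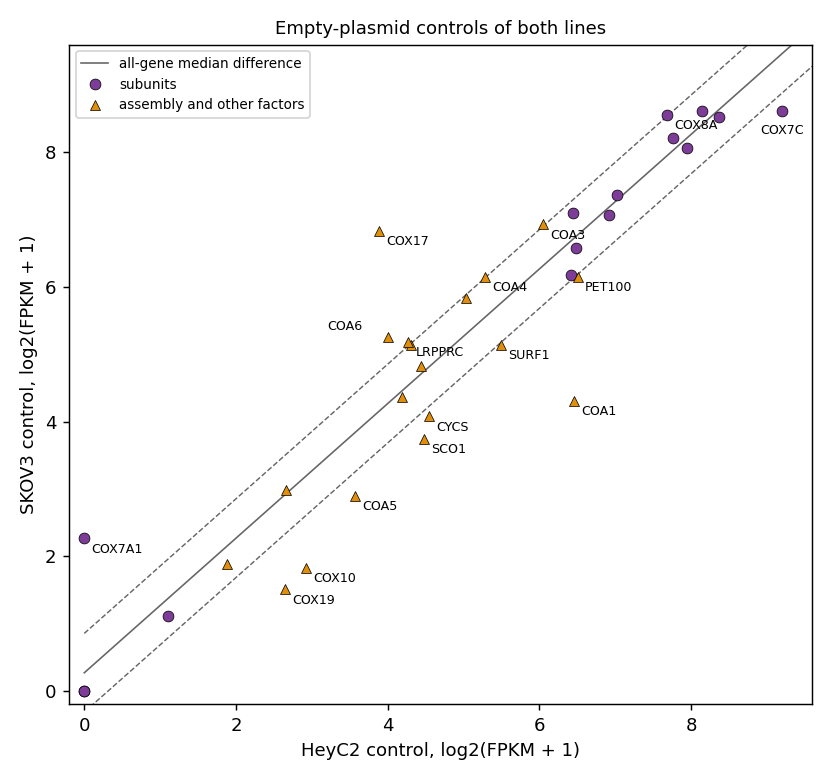
Level of each member in the SKOV3 control against the HeyC2 control, both as log2(FPKM + 1), with subunits as circles and assembly and other factors as triangles. The solid line is the all-gene median difference, dashed lines lie 1.5-fold from it, and the 16 named members lie on or beyond them. Most subunits keep near the line, but COX7A1, COX8A and COX7C are past 1.5-fold. COX17 at 13.79 and 113.35 FPKM and COA1 at 86.75 and 18.87 FPKM lie far from the line.

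A second list held 29 further genes of complex IV, its assembly and cytochrome c, of which 26 were in the tables. The core genes MT-CO1, MT-CO2 and MT-CO3 were not analysed here. In HeyC2, 22 passed the filter with a median relative change of -0.14, and 0 were past 1.5-fold in either direction, against 12.5% and 9.17% of all genes. The highest there was COX20, a chaperone of COX2, at 0.45, and the lowest PNKD at -0.58. In SKOV3, 23 passed with a median of -0.18, 1 was higher by 1.5-fold and 4 (17.39%) were lower, against 20.7% and 18.2% of all genes. The higher gene was FDXR, the reductase that passes electrons to ferredoxins, at 3.56 FPKM in the control and 11.06 in TET1, a relative change of 1.21, while in HeyC2 it was at 51.52 and 36.08 FPKM, a relative change of -0.56. The lower genes were FDX1L at -1.06, HIGD2A at -0.98, HCCS at -0.91 and CYC1 at -0.60. FDX1L is a ferredoxin, HCCS attaches heme to cytochrome c, and CYC1 is the cytochrome c1 subunit of complex III. COX7B2, a paralog of the subunit COX7B, was listed at 0 in both HeyC2 libraries and was at 29.81 FPKM in SKOV3 control cells and 45.56 with TET1. COX7B itself was at 119.83 and 110.55 FPKM in HeyC2 and at 133.09 and 136.27 in SKOV3, so the paralog made up 18.3% of the pair in SKOV3 control cells and 25.1% with TET1.

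Genes that govern COX4I2 or the turnover of COX4I1 were present although COX4I2 was listed at 0. Relative changes in HeyC2 and SKOV3 were -0.28 and 0.34 for HIF1A, 0.59 and -0.64 for EPAS1, -0.09 and -0.52 for RBPJ, 0.26 and -0.56 for CXXC5, -0.42 and -0.18 for CHCHD2 and -1.11 and -0.14 for LONP1. LONP1, the mitochondrial protease, was at 45.55 FPKM in the HeyC2 control and 21.51 in HeyC2 TET1, and COX4I1 was at a relative change of -0.20 in the same line. Both are RNA values, and turnover of the COX4I1 protein was not measured in them.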

How the data were processed

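Total RNA of 4 cultures was sequenced by the authors with TruSeq RNA kits (paired reads of 150 bp), aligned to hg19 with Bowtie2 2.2.6 and quantified with RSEM 1.2.17. The deposited FPKM, 1 table per cell line, hold 26506 symbols. The annotation and strand setting are not given in the sources used here. The FPKM of each TET1 library lay on multiples of 0.01 times a constant (100% of distinct values below 40 FPKM), which was divided out, and GAPDH then fell from 5417.35 to 1674.9 in HeyC2 and from 2248.44 to 1670.9 in SKOV3.

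Changes were computed as log2(FPKM + 1) differences minus their median over all genes whose mean in that line reached 1 FPKM. With a pseudocount the change of low genes is understated. No test was possible with 1 library per group. Fragment numbers are approximate and rest on the steps between the lowest FPKM of genes with a transcript of at least 800 nt. Intervals of counting error cover fragments only.

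Values in every library are given for members past 1.5-fold, the 3 highest and 3 lowest per line, the 3 most abundant, the tissue isoforms, SCO2, LRPPRC and CYCS. COX5A, COX17, COX19, SCO1, TACO1, COX7B, COX7B2, HIGD2A, HCCS, CYC1 and LONP1 were added after their values were seen. Members and lists were chosen with earlier results of these data known. Lengths, exon overlaps and pseudogenes came from GENCODE on GRCh37 (22113 symbols, 83.43%, all 34 members), and promoters from RefSeq on GRCh38.p14, whose printed letters were found identical in GRCh37. In genes with several starts the start farthest upstream was used.

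Alternatives were FPKM as deposited, pseudocounts of 0.1 and 0.01, no filter or a mean of at least 5, upper-quartile scaling, TPM, centring on the trimmed mean, correction for length and GC content, and limits of 2-fold and 1.2-fold. Centring on genes of at least 50 FPKM was added after the data were examined. The code was tested on simulated data. Python 3.11.15, numpy 2.4.6, pandas 2.3.3 and matplotlib 3.10.9 were used.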

Additional observations from a re-analysis of the deposited data

Results flagged for a closer look

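For 4 members the relative change was past 1.5-fold in 1 cell line and had the opposite sign in the other, which is 13.3% of the 30 members with a value in both and compares with 19.4% of all genes. The difference of HeyC2 minus SKOV3 on the log2 scale was 0.92 for COX8A, -0.72 for COX10, 0.996 for SCO2 and 1.16 for COA6. COX8A and COA6 were below their control in SKOV3 and close to the all-gene median in HeyC2, COX10 was below its control in HeyC2 and close to the median in SKOV3, and SCO2 was above in HeyC2 and below in SKOV3. Of the opposite signs, 3 rest on values near 0, and 2 of them turn under an alternative: COX10 in SKOV3 had a lowest value of -0.01 and COA6 in HeyC2 of -0.0045. With 1 library per group the difference between the lines was not tested for any of them.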

How the results depend on the processing

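No paired analysis was possible because each group has 1 library, and for the same reason no library was left out. The planned search under older symbols gave no further value, since all 34 symbols were listed. Of the medians and counts recomputed under the alternatives, 69 stayed within 0.1 (log2) or 1.5 times of the reported value and 28 did not. In HeyC2 the subunit median was -0.0526 with the values as deposited. The count above 1.5-fold was 0 with correction for length and GC content, 0 at 2-fold and 2 at 1.2-fold. The count below was 1 at a mean of at least 5 FPKM, under upper-quartile scaling, with correction for length and GC content and with centring on genes of at least 50 FPKM (a choice made after seeing the data), 0 at 2-fold and 7 at 1.2-fold.

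In SKOV3 the subunit median was 0.022 under upper-quartile scaling, -0.0339 with correction for length and GC content and 0.18 with centring on genes of at least 50 FPKM. The median of assembly and other factors was 0.0475 under upper-quartile scaling and 0.20 with that centring. The sign of both SKOV3 medians therefore depends on the genes taken as the reference. The count above 1.5-fold was 2 with a pseudocount of 0.1, with TPM and at a mean of at least 5 FPKM, 3 with a pseudocount of 0.01 and under upper-quartile scaling, and 4 at 1.2-fold and with centring on abundant genes. The count below was 2 at a mean of at least 5 FPKM, at 2-fold and with that centring, and 9 at 1.2-fold. The median of the members between the controls was 0.0584 at a mean of at least 5 FPKM and 0.0393 under upper-quartile scaling.

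SCO2 in HeyC2 lost its call with correction for length and GC content, at 0.48. CYCS in HeyC2 lost it in 5 of 10 alternatives and COX15 in SKOV3 in 4 of 10, while COX8A in SKOV3 lost it with centring on abundant genes, at -0.55. COX10 in HeyC2 and COA5 and COA6 in SKOV3 kept theirs in all 10, while at the 2-fold limit COX10, at -0.67, was not past it. In SKOV3, members not past 1.5-fold gained a call in some alternatives, COX6B2 in 5, SURF1 and COX16 in 3 each and COX19 in 2. The cause was not tested.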
